A study of Mus musculus with 12 samples.

Results

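Hyaluronan metabolism and lubricin were followed through 9 genes, taken from the deposited expression table by symbol: the hyaluronan synthases Has1, Has2 and Has3, the hyaluronidases Hyal1 and Hyal2, the hyaluronan-depolymerizing protein Cemip, the hyaluronan-binding protein Tnfaip6, the hyaluronan receptor Cd44, and Prg4, which encodes lubricin. These were 9 of the 53341 genes in the table, and all 9 passed the filter on low values, as did 18139 genes in all. The cells were mouse fibroblast-like synoviocytes, which line the joint cavity, grown from the synovium of mice described as SoxC. SoxC is the group of transcription factors that holds Sox4, Sox11 and Sox12, and the study asked how these factors take part in the response to TNF, an inflammatory cytokine. The 12 libraries of poly(A) RNA formed 4 groups of 3. The control group received the adenovirus Ade5CMV-eGFP and no TNF, and the control_TNF group received the same virus and TNF. The SoxC_KO group received Ade5CMV-Cre and no TNF, and the SoxC_KO_TNF group received Ade5CMV-Cre and TNF. Cells in the TNF groups were kept for 16 h with 10 ng/mL of recombinant human TNF. All 4 groups thus carried an adenovirus, and Cre was delivered by a virus, by its name under the CMV promoter, which is not specific to a cell type. The strain and age of the mice and the deleted exons were not stated in the sources at hand. Nor was it stated whether replicates were different animals or cultures, so the p-values speak only to variation among these 12 libraries, part or all of which may be technical.

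Hyaluronan is a long unbranched sugar polymer that gives synovial fluid its viscosity. It is made at the plasma membrane by the 3 synthases, which take UDP-glucuronic acid and UDP-N-acetylglucosamine from the cytosol and push the growing chain out of the cell. CEMIP and HYAL2 cut it at or near the cell surface, and HYAL1 cuts it in lysosomes. The product of Tnfaip6, TSG-6, moves the heavy chains of inter-alpha-inhibitor onto hyaluronan, and CD44 holds the polymer at the cell surface. Lubricin is a heavily glycosylated boundary lubricant of cartilage, secreted by lining synoviocytes and superficial chondrocytes. Has1, Has2, Cemip and Prg4 are known as genes of the lining fibroblast.

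Normalized totals were 19.6 to 23.1 M per library, and the commonest low value, read as 1 read pair, put the depth at 8.14 to 13.7 M read pairs. The targeted genes were looked at first as a check of the labels. Sox4 stood at 1857 to 4238 normalized counts in control and 548 to 1433 in SoxC_KO, and at 1626 to 3646 in control_TNF and 601 to 1086 in SoxC_KO_TNF, though it is not known whether its reads fall in the deleted part. The other SoxC genes separated less. Sox11 stood at 153 to 272 in control and 26.8 to 175 in SoxC_KO, and at 138 to 248 in control_TNF and 29.5 to 105 in SoxC_KO_TNF. Sox12 stood at 162 to 352 in control and 194 to 259 in SoxC_KO, with number 3 higher in the knockout library, and at 237 to 326 in control_TNF and 86.5 to 159 in SoxC_KO_TNF. The 11 fibroblast markers were above 0 in every library. Of the 10 macrophage markers, Lyz2 (677.3 to 2438 normalized counts), Cd14 (278.2 to 814.8), Csf1r (193.2 to 670), Adgre1 (52.72 to 143.7) and Cd68 (59.54 to 104.5) were present in every library, while Mrc1, C1qb, Ptprc, C1qa and Cx3cr1 reached at most 41.99, 29, 19.14, 10.73 and 9.39. The 4 libraries numbered 3, 1 from each group, separated from the rest along the first principal component (51.6% of the variance). The summed level of the 10 macrophage markers was 3443 to 4006 in the libraries numbered 3 and 1394 to 2080 in the other 8, and that of the fibroblast markers was 174300 to 328500 against 321700 to 449400. The 6 lining fibroblast markers summed to 3012 to 3488 in the libraries numbered 3 and 2276 to 2528 in the others, and the 8 chondrocyte markers to 1974 to 4330 against 3695 to 5934. Most of the lining sum was Hbegf (1846 to 3033). Tspan15, Htra4, Clic5, Dnase1l3 and Tmem196 reached at most 281.5, 222.5, 152.7, 26.36 and 14.33. Hepatocyte markers summed to 625.5 in control_TNF replicate 2 and 4352 in SoxC_KO_TNF replicate 1, against 69.75 or less elsewhere. Skeletal muscle markers were highest in SoxC_KO replicates 1 and 3 (1370 and 1546) and SoxC_KO_TNF replicate 1 (1479), against 508 to 1101 elsewhere. Of these markers Acta1 (279.7 to 1146) and Actn3 (105.5 to 246.8) were present in every library. Myh4, Ckm and Pvalb ran from 0 to 276.8, 95.34 and 56.96. In such bulk samples, fewer cells of a type and less RNA per cell cannot be told apart.

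Prg4 was the most abundant of the 9 RNAs per length and Has3 the least. Divided by the length of the merged exons in kilobases, the mean normalized count per kilobase in control cells was 3183 for Prg4, 1508 for Cd44, 957 for Cemip and 693 for Has2. The hyaluronidases followed at 259 for Hyal2 and 148 for Hyal1, then Tnfaip6 at 55.5, Has1 at 14.5 and Has3 at 2.47 per kilobase. Among the synthases, Has2 stood far above Has1 and Has3 in every library. The order of the means was the same in all 4 groups. Neighbours in that order overlapped in their ranges in most places above Hyal1. In control cells, Prg4, Cd44 and Cemip each overlapped the next and Hyal2 overlapped Hyal1, while Has2 lay clear of Hyal2. In SoxC_KO cells Prg4 lay clear of Cd44. From Hyal1 down to Tnfaip6, Has1 and Has3, no neighbours overlapped in any group.

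**Figure D1:**
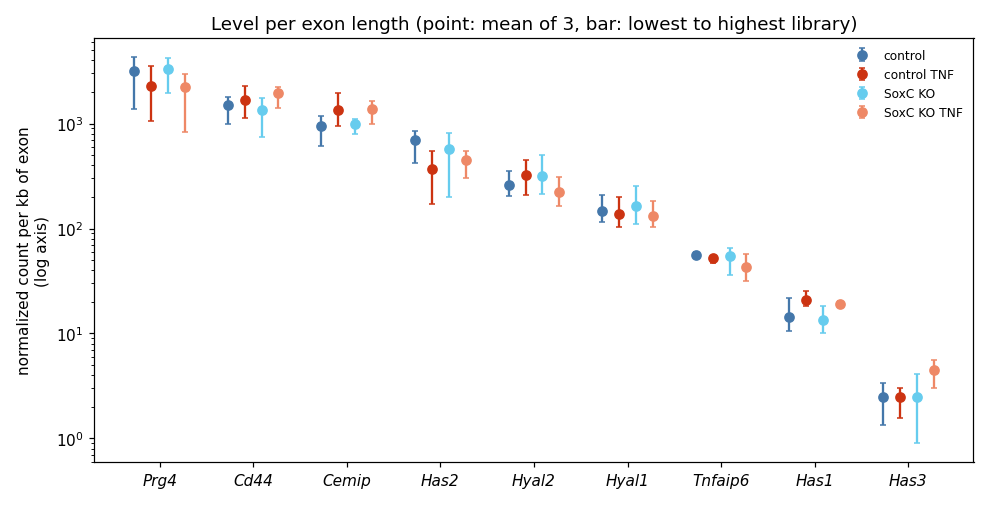
Normalized count per kilobase of exon (log axis) for the 9 genes in the 4 groups (colours), with points at the mean of 3 libraries and bars from the lowest to the highest library. Prg4, Cd44, Cemip and Has2 lie at the top, with control means of 3183, 1508, 957 and 693, and Has3 lies at the bottom with 2.47.

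Several of these genes share ground with another gene, and the counting is not stated to use strand, so their levels are uncertain to that extent. Overlaps are given for whole gene spans, introns included. Hyal1 (chromosome 9, 107576927 to 107581710, plus strand, mm10 as are all positions here) shares 2824 bases with Nat6 on the same strand, which stood at 393.2 to 951.1 normalized counts. It also shares 893 bases with Hyal3 on the same strand, at 18.49 to 43.99. Hyal2 (chromosome 9, 107567945 to 107572779, plus) shares 471 bases with the antisense gene Gm9917, at 551 to 1069. Has3 (chromosome 8, 106870242 to 106884566, plus) shares 704 bases with Chtf8 on the other strand, whose 2091 to 4466 normalized counts were far above those of Has3. Prg4 (chromosome 1, 150449412 to 150466165, minus) shares 524 bases with Tpr on the other strand, which stood at 714.3 to 5279 normalized counts (median 4014). Has2 (chromosome 15, 56665627 to 56694539, minus) overlaps its antisense gene Has2os, which stood at 15.09 to 37.71. The partners were named after their values were seen. Has1 (chromosome 17, 17843328 to 17855188, minus), Cemip (chromosome 7, 83932857 to 84086502, minus) and Tnfaip6 (chromosome 2, 52038009 to 52056686, plus) had no such partner, and the snRNA gene within Cd44 (chromosome 2, 102811141 to 102901665, minus) was listed at 0 in all 12 libraries.

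For 7 of the 9 genes, all but Has1 and Tnfaip6, the libraries numbered 3 differed from the others by more than the groups did in any TNF or knockout comparison, as did 59.1% of all genes tested. On the log2(normalized count + 1) scale the mean difference of number 3 from numbers 1 and 2 was -1.47 for Prg4, -1.27 for Has2, -1.08 for Has3, -0.85 for Cd44, -0.67 for Cemip and -0.31 for Tnfaip6, each lower in 4 of 4 groups. Hyal1 was higher by 0.92 and Hyal2 by 0.88, each in 4 of 4 groups, and Has1 by 0.50 in 3 of 4. Of all genes tested, 6.79% differed by as much as Prg4, 10.8% as Has2 and 17% as Has3. The shares were 24.4% for Hyal1, 26.4% for Hyal2, 28.2% for Cd44, 40% for Cemip, 53.8% for Has1 and 70.2% for Tnfaip6, so most of the 9 differed by amounts common among all genes. These values compare libraries that differ in replicate number only as far as the labels say, so they are given as a description, with no test. Macrophage and lining fibroblast sums were higher, and fibroblast and chondrocyte sums lower, in the library numbered 3 of each group (values above). Neutrophil sums were higher there too (1405 to 2374 against 475.7 to 1426 in the others). Endothelial sums were lower there (201.1 to 235.9 against 215.8 to 315.5). Most of the neutrophil sum was Camp (429.2 to 1920), while S100a9 reached at most 4.753. The lining sum was mostly Hbegf. The part of these marker lists in the differences was not tested.

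**Figure D2:**
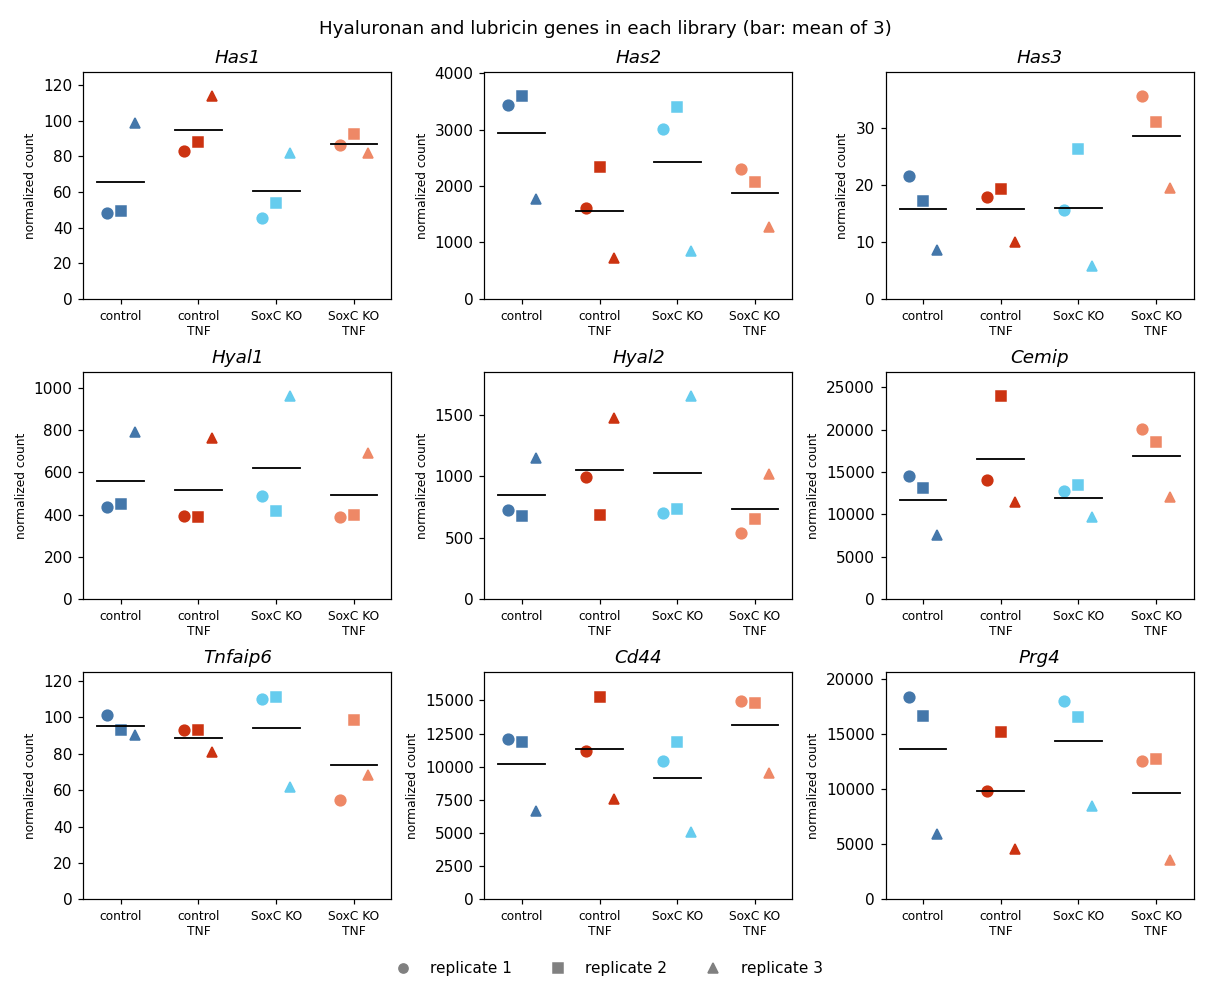
Normalized counts (linear axes from 0) of the 9 genes in the 12 libraries, 1 panel per gene, with the 4 groups along the horizontal axis, the replicate number as the marker shape and lines at the mean of 3. Within each group the libraries numbered 3 stand lowest for Prg4, Has2, Has3, Cd44 and Cemip and highest for Hyal1 and Hyal2.

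The first question was what TNF did to these genes. Between the groups as a whole, none of the 9 passed: limma with Benjamini-Hochberg adjustment over all genes called 0 of 9 in control cells (0.32% of all genes tested), 0 of 9 in knockout cells (0.292%) and 0 of 9 for the average of both TNF effects (1.17%). At an unadjusted limma p under 0.05, there were 0 of the 9 in control cells (4.21% of all genes), 0 in knockout cells (7.38%) and 1, Has1, in the average (8.17%). TNF was also compared within replicate number, by a model with the number as a block over all 4 groups. The reason was that same-numbered libraries correlated after group means were removed, weakly in part. For TNF, r was 0.103 to 0.715 in control cells and 0.148 to 0.501 in knockout cells. The shared position of the libraries numbered 3 enters these values. The block also joined the genotypes with TNF, where r was 0.0537 for number 1. With that block, Prg4 and Has2 fell and Cemip rose on average over control and knockout cells (3 of 9, against 5.19% of all genes, 3.01% higher and 2.18% lower). In control cells alone Has2 fell (1 of 9, against 1.71% of all genes, 1.18% higher and 0.529% lower), and in knockout cells alone 0 of 9 passed (2.78%). With the block, 4 of 9 had an unadjusted limma p under 0.05 in control cells, against 12.2% of all genes. There were 6 in knockout cells (21.0% of all genes) and 5 in the average (15.7%). For no member did the TNF libraries lie clear of those without TNF, in control cells (8.72% of all genes did) or in knockout cells (12.8%). The median log2 change of the 9 was 0.03 in control cells and -0.17 in knockout cells, against -0.02 and -0.01 over all genes tested.

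The calls made with the block rest on few libraries. On leaving out 1 library at a time, Prg4 was still called in 6 of 12 cases, Cemip in 4 and Has2 in 3, with the average log2 change between -0.68 and -0.50 for Prg4, between 0.37 and 0.58 for Cemip and between -0.73 and -0.48 for Has2. The adjusted p (limma, Benjamini-Hochberg) ranged from 0.0139 to 0.0857 for Prg4, from 0.0131 to 0.151 for Cemip and from 0.00404 to 0.154 for Has2. None of the 3 was called without control replicate 2, control replicate 3, control_TNF replicate 3 or SoxC_KO replicate 1. Without the 4 libraries numbered 3, Has2 and Has1 were called and Prg4 and Cemip were not. Without the 2 libraries with high hepatocyte sums only Prg4 was called. None was called without SoxC_KO replicate 1 and SoxC_KO_TNF replicate 1, whose skeletal muscle sums (1370 and 1479) were among the highest. SoxC_KO replicate 3, with the highest muscle sum, stayed in for that setting, and all 3 genes were called when it alone was left out. The Has2 average, close to the threshold, was also lost with a pseudocount of 0.5, with trimmed-mean or upper-quartile scaling, with no filter on low values and with no intensity trend.

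**Figure D3:**
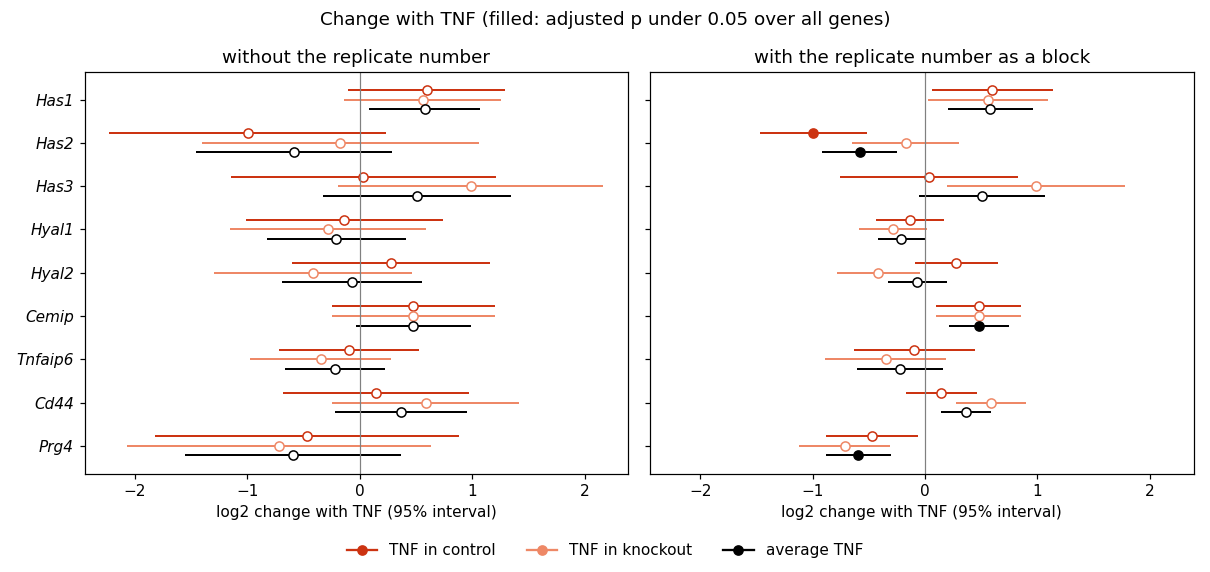
Log2 change with TNF in control cells, in knockout cells and on average for the 9 genes (points), with 95% confidence intervals (lines) from limma without the replicate number on the left and with it as a block on the right. Filled points passed an adjusted p of 0.05: on the right the averages of Prg4, Has2 and Cemip (-0.59, -0.58 and 0.48) and Has2 in control cells (-0.99), and none on the left.

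Has2, the main synthase of these cells, was lower with TNF in control cells. Its normalized counts in replicates 1, 2 and 3 were 3438, 3596 and 1772 in control and 1616, 2342 and 731 in control_TNF. Each TNF library lay below the control library of the same number, while the groups overlapped because control replicate 3 was low. The mean went from 2935 ± 1011 to 1563 ± 807 (SD, n = 3), a log2 change of -0.99 (SE 0.22 with the block, limma adjusted p = 0.04, and SE 0.56 without it, limma adjusted p = 0.998). In knockout cells Has2 stood at 3016, 3407 and 847 without TNF and 2304, 2068 and 1278 with it. There it was lower for numbers 1 and 2 and higher for number 3, with a log2 change of -0.17 (SE 0.22 with the block, limma adjusted p = 0.65). The average change was -0.58 (SE 0.15, limma adjusted p = 0.0498 with the block and 0.961 without). The call in control cells was kept in 4 of 12 cases on leaving out 1 library, with log2 changes from -1.15 to -0.87 and adjusted p from 0.00559 to 0.239 (limma with the block). It was lost without any 1 of the 3 control libraries, any 1 of the 3 control_TNF libraries, SoxC_KO replicate 1 or SoxC_KO_TNF replicate 1.

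Has1, a synthase of low abundance known to respond to inflammatory cytokines, had higher values with TNF in 5 of 6 same-numbered pairs. It stood at 48.1, 49.5 and 98.9 normalized counts in control and 83.2, 88.0 and 114 in control_TNF. In knockout cells it stood at 45.3, 53.8 and 81.8 without TNF and 86.5, 92.5 and 81.6 with it. Numbers 1 and 2 were higher with TNF in both genotypes, and number 3, already high without TNF, differed little. The average log2 change was 0.58 (SE 0.17 with the block, limma adjusted p = 0.0869, and 0.447 without it), so Has1 did not pass either way with all 12 libraries. Without the 4 libraries numbered 3 it passed, with an average log2 change of 0.82 (limma adjusted p = 0.0223 without the block).

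Has3, the least abundant synthase, was measured near the limit set by depth. Its values were 21.6, 17.1 and 8.62 normalized counts in control and 17.9, 19.2 and 10.0 in control_TNF, and 15.6, 26.3 and 5.76 in SoxC_KO and 35.5, 31.0 and 19.4 in SoxC_KO_TNF. In control cells the TNF values lay within the range without TNF, and in knockout cells each was above its same-numbered partner. The log2 change was 0.03 in control cells and 0.99 in knockout cells (SE 0.36 with the block, limma adjusted p = 0.978 and 0.174). If the commonest low value, 1.51 to 2.68 normalized counts, is 1 read pair, the lowest Has3 values rest on few read pairs. Only 38.2% to 44.5% of low values were whole multiples of it, so that reading is uncertain.

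Cemip, the abundant depolymerizing protein, was the 1 member of hyaluronan breakdown that rose, and it did so with the block only. It stood at 14505, 13074 and 7524 normalized counts in control and 14061, 23912 and 11463 in control_TNF. In knockout cells it stood at 12780, 13505 and 9638 without TNF and 20123, 18582 and 12018 with it. It was higher with TNF in 5 of 6 same-numbered pairs, the exception being number 1 in control cells, and the groups overlapped. The group mean went from 11701 ± 3688 to 16479 ± 6567 in control cells and from 11974 ± 2055 to 16908 ± 4304 in knockout cells (SD, n = 3 each). The log2 change was 0.48 in both genotypes and on average (SE of the average 0.12, limma adjusted p = 0.0436 with the block and 0.681 without).

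The stretch upstream of Cemip is shown because Cemip passed in the TNF comparison and its promoter was among those at hand. Promoter sequences came from RefSeq (GRCm38.p6), where 6 of the 9 genes matched and 5 had bases upstream of the gene as the deposited table places it. These were searched on both strands for the NF-kappaB consensus, for AP-1 (TGANTCA), for the SOX motifs AACAAT and AACAAAG, and for the TATA box TATAAA. In 250-base windows upstream of all 27025 genes in that table (32851 windows), the shares holding each were 3.9%, 6.75%, 9.42%, 5.03% and 12.4%. The window of Cemip, chr7:84086506-84086755 on the minus strand, held a TATA box 29 bases before the RefSeq start (in capitals), and no other match.
Cemip: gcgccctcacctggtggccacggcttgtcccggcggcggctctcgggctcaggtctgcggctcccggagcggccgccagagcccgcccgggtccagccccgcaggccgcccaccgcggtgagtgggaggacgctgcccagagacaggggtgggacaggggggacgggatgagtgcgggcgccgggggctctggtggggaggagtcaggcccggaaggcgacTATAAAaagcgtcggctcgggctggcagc
The upstream bases of Tnfaip6, chr2:52037863-52038008 on the plus strand, held the only other match among the 5 genes, an AP-1 motif 142 bases before the RefSeq start (in capitals). They are shown, chosen after its values were seen, because the gene is named for its induction by TNF.
Tnfaip6: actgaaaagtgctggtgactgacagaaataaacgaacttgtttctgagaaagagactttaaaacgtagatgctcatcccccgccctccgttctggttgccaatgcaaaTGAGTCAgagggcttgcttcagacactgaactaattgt
Has1, Hyal1 and Cd44 held none of the motifs in the stretches searched. These were 146 bases for Tnfaip6, 227 for Hyal1 and 233 for Has1, as bases within the annotated gene were left out. The shares of 250-base windows are thus not a like measure for these 3 genes. A match in such a window is a description of its letters only.

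The hyaluronidases did not pass in any TNF comparison. Hyal2, the membrane-anchored enzyme, stood at 726, 675 and 1153 normalized counts in control and 994, 689 and 1477 in control_TNF, higher with TNF for each number. In knockout cells it stood at 704, 738 and 1651 without TNF and 542, 650 and 1022 with it, lower for each number. The log2 changes were 0.28 and -0.42 (SE 0.17 with the block, limma adjusted p = 0.516 and 0.201). Hyal1, the lysosomal enzyme, was slightly lower with TNF in 6 of 6 same-numbered pairs (average log2 change -0.21, SE 0.10, limma adjusted p = 0.328 with the block). Its values were 437, 451 and 789 in control, 395, 390 and 762 in control_TNF, 487, 417 and 960 in SoxC_KO, and 391, 400.1 and 691 in SoxC_KO_TNF. The gap between number 3 and the other libraries exceeded any difference between the groups.

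Tnfaip6, whose human gene was found as one induced by TNF, showed no increase here after 16 h. It stood at 101, 93.0 and 90.2 normalized counts in control and 93.0, 92.7 and 80.7 in control_TNF, and at 110, 111 and 61.7 in SoxC_KO and 54.4, 98.2 and 68.0 in SoxC_KO_TNF. It was lower with TNF in 5 of 6 same-numbered pairs. The average log2 change was -0.22 (limma adjusted p = 1 without the block and 0.633 with it), with a 95% confidence interval from -0.66 to 0.22 without the block and from -0.60 to 0.16 with it. An average rise above 0.22 on the log2 scale thus lay outside both intervals. In control cells alone the interval was wider, from -0.72 to 0.53 without the block and from -0.63 to 0.44 with it. A larger rise in control cells thus lay within these intervals. In knockout cells alone it ran from -0.97 to 0.28 without the block and from -0.89 to 0.19 with it.

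Cd44, the main hyaluronan receptor, stood at 12126, 11864 and 6655 normalized counts in control and 11161, 15274 and 7602 in control_TNF. In knockout cells it stood at 10461, 11844 and 5052 without TNF and 14945, 14842 and 9554 with it. In knockout cells each TNF library was above its same-numbered partner, and in control cells number 1 was the exception. The log2 change was 0.59 in knockout cells and 0.15 in control cells (SE 0.14 with the block, limma adjusted p = 0.0523 and 0.696). The value in knockout cells lay just over the threshold, and over its alternatives with the block the adjusted p ran from 0.0255 to 0.443.

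Prg4, the lubricin gene, was lower with TNF in 6 of 6 same-numbered pairs. It stood at 18346, 16642 and 5886 normalized counts in control and 9853, 15128 and 4531 in control_TNF. In knockout cells it stood at 17951, 16499 and 8450 without TNF and 12517, 12733 and 3540 with it. The differences by number ran from -1.26 to -0.14 on the log2 scale, while the groups overlapped because the libraries numbered 3 were low throughout. The mean went from 13625 ± 6756 to 9837 ± 5299 in control cells and from 14300 ± 5118 to 9597 ± 5246 in knockout cells (SD, n = 3 each). The log2 change was -0.47 in control cells (SE 0.19 with the block, limma adjusted p = 0.329) and -0.72 in knockout cells (limma adjusted p = 0.0645), neither passing. The average was -0.59, a fold of 0.663 (SE 0.13, limma adjusted p = 0.0213 with the block, and SE 0.44, limma adjusted p = 1 without it). The summed fibroblast markers were also lower with TNF in 6 of 6 same-numbered pairs, at 234200 to 424800 in control and 213300 to 364400 in control_TNF, and at 328500 to 449400 in SoxC_KO and 174300 to 371900 in SoxC_KO_TNF. The summed chondrocyte markers were lower with TNF in 6 of 6 pairs too, at 2605 to 5934 in control and 2311 to 3938 in control_TNF, and at 4330 to 5824 in SoxC_KO and 1974 to 4039 in SoxC_KO_TNF. Most of that sum was Comp and Col11a1, while Acan was at most 8.878 and Col9a1 at most 8.048. The part of either list in the Prg4 and Has2 values was not tested.

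**Figure D4:**
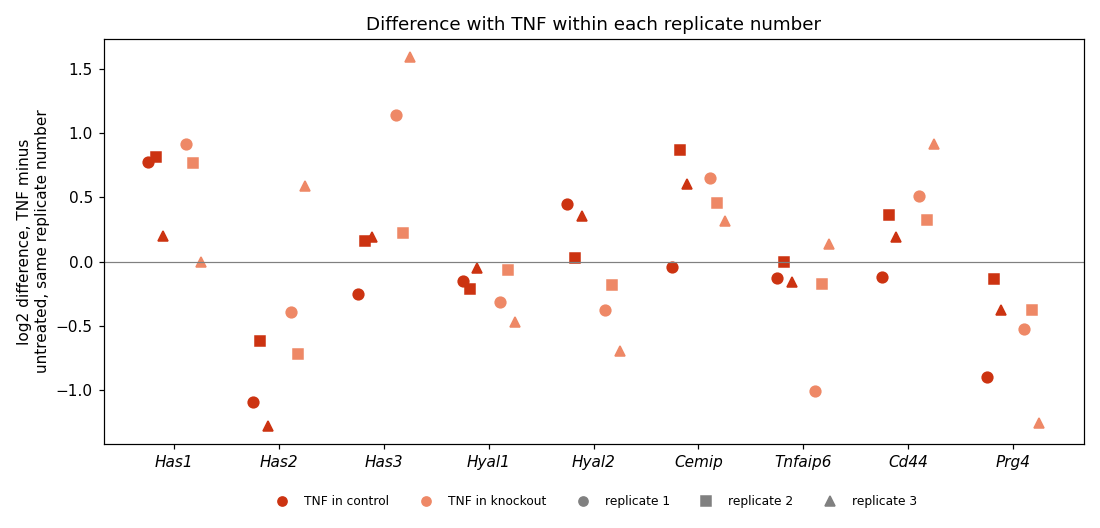
Difference in log2(normalized count + 1) between the TNF library and the library without TNF of the same replicate number, for the 9 genes in control and knockout cells (colours), with the number as the marker shape. All 6 points lie below 0 for Prg4 (-1.26 to -0.14) and Hyal1, and Hyal2 splits with 3 above 0 in control cells and 3 below in knockout cells.

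The next question was whether loss of SoxC changed these genes. No member passed. Limma with Benjamini-Hochberg adjustment called 0 of 9 without TNF, 0 of 9 with TNF and 0 of 9 on average, where it called 0% of all genes in each of the 3 comparisons (176, 233 and 140 genes had an unadjusted p under 0.05, none of them a member). With the block, 0 of 9 were called, with 0% of all genes without TNF, 0% with TNF and 0.00551% (1 gene) on average. By that model 0 members without TNF and 2 with TNF, Has3 and Hyal2, had an unadjusted limma p under 0.05, against 4.55% and 6.4% of all genes. With TNF, same-numbered libraries of the 2 genotypes did not meet the rule set for reading them as pairs, which limits the values with the block. Without TNF the log2 changes between SoxC_KO and control ran from -0.44 for Has2 to 0.20 for Hyal2, with a median of -0.06 against -0.01 over all genes tested. Prg4 was at 13625 ± 6756 in control and 14300 ± 5118 in SoxC_KO (SD, n = 3), and Cemip at 11701 ± 3688 and 11974 ± 2055. With TNF the changes ran from -0.50 for Hyal2 to 0.83 for Has3, with a median of -0.04 against -0.004 over all genes. Has3 was the 1 member whose groups did not overlap, at 17.9, 19.2 and 10.0 in control_TNF and 35.5, 31.0 and 19.4 in SoxC_KO_TNF, where 5.16% of all genes did not (4.37% without TNF). Its SE was 0.54 without the block and 0.36 with it (limma adjusted p = 0.998 and 0.618).

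The series title asks of TNF-responsive genes in particular, which the interaction tests: the TNF effect in knockout cells minus that in control cells. Limma with Benjamini-Hochberg adjustment called 0 of 9 members without the block and 0 with it, and 0% of all genes tested in both (273 genes without the block and 3123 with it had an unadjusted p under 0.05). The members' interaction had a median of -0.04 on the log2 scale against -0.001 over all genes. The widest values were 0.95 for Has3 (SE 0.52 with the block, limma adjusted p = 0.333), 0.82 for Has2 (SE 0.31, limma adjusted p = 0.284), -0.70 for Hyal2 (SE 0.24, limma adjusted p = 0.284) and 0.44 for Cd44 (SE 0.20, limma adjusted p = 0.292). Has2 and Hyal2 were the 2 members with an unadjusted limma p under 0.05 with the block, where 17.2% of all genes were. Has2 fell past the threshold in control cells and not in knockout cells, but the difference between these effects did not pass. For Cemip the TNF effect was 0.48 in both genotypes.

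Around the 9 genes, lists of other genes of the pathway were followed in the average TNF comparison with the block, where 3.01% of all genes were called higher and 2.18% lower. Of 16 tested genes that supply the UDP-sugar precursors, 0 rose and 0 fell. The most abundant was Gpi1, a glycolytic isomerase upstream of hexosamine synthesis, at 9840 ± 750 normalized counts in control and 10372 ± 760 in control_TNF (SD, n = 3). Of 6 tested genes of other hyaluronidases and lysosomal breakdown, 0 passed in either direction. The most abundant was Hexa, a subunit of lysosomal hexosaminidase, at 6573 ± 2649 in control and 7381 ± 3406 in control_TNF. Neither list thus held a called gene.

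Of 5 other hyaluronan receptors tested, 2 rose. Tlr2, an innate immune receptor that can bind hyaluronan fragments, went from 1098 ± 25.3 to 2647 ± 273 normalized counts in control cells and from 1084 ± 53.3 to 2953 ± 377 in knockout cells (SD, n = 3 each), an average log2 change of 1.35 (SE 0.12, limma adjusted p = 0.000255 without the block). Stab1, a scavenger receptor of endothelial cells and macrophages, went from 92.6 ± 6.42 to 174 ± 16.0 in control cells, an average log2 change of 0.79 (SE 0.15, limma adjusted p = 0.0102 with the block). Of 12 tested hyaluronan-binding matrix proteins and heavy chain donors, 1 rose and 1 fell. Itih5, a heavy chain of the inter-alpha-inhibitor family, had an average log2 change of 0.66 (SE 0.17, limma adjusted p = 0.0407 with the block), and Fbln2, a fibulin that binds versican, had -0.44 (SE 0.12, limma adjusted p = 0.0488 with the block). The summed macrophage markers were higher with TNF in 5 of 6 same-numbered pairs, and the summed neutrophil markers in 6 of 6. The part of either list in the Tlr2 and Stab1 values was not tested.

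Of 15 tested partners, splicing factors and sheddases of Cd44, 2 rose. Mmp9, a gelatinase that docks on CD44, went from 325 ± 52.2 to 2830 ± 892 normalized counts in control cells and from 372 ± 87.4 to 2545 ± 910 in knockout cells (SD, n = 3 each), an average log2 change of 2.90 (SE 0.24, limma adjusted p = 0.00019 without the block). Spp1, osteopontin, a secreted ligand of CD44, went from 23312 ± 755 to 29279 ± 3404 in control cells, an average log2 change of 0.44 (SE 0.10, limma adjusted p = 0.0213 with the block). Of 15 tested genes on a list of lubricin regulators and boundary lubrication partners, 1 rose and 1 fell. A place on that list was a choice made beforehand, and no gene's role in lubrication was tested. Plscr1, a phospholipid scramblase induced by interferon, went from 987 ± 290 to 2399 ± 389 in control cells, an average log2 change of 1.15 (SE 0.19, limma adjusted p = 0.0133 without the block). Tgfb2, a ligand of the TGF-beta pathway, which is known to raise lubricin in synoviocytes, went from 967 ± 421 to 575 ± 275 in control cells (log2 change -0.76, SE 0.16, limma adjusted p = 0.0322 with the block). Its average log2 change was -0.54 (SE 0.11, limma adjusted p = 0.0155 with the block). In these 6 lists Tlr2, Mmp9 and Plscr1 passed without the block, and 0 genes passed in a knockout comparison or the interaction. The lists' median log2 change ran from -0.14 for the matrix proteins to 0.54 for the receptors, against -0.001 over all genes tested.

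The genes most like each member over the 12 libraries were ranked by Pearson's r of log2 values among 11741 genes, as a description. The libraries share the split between number 3 and the others, which alone lifts r. For Prg4 these were Col6a3 (r = 0.994), Slit3 (0.993) and Col3a1 (0.991), of which Col6a3 and Col3a1 are fibroblast collagens. For Has2 they were Fam13c (0.987), Wnt5a (0.986) and Ugcg (0.986), and for Cd44 Itgav (0.997), Papd5 (0.993) and Pcdh7 (0.992). For Cemip they were Abr (0.979), Abcc1 (0.975) and Ampd3 (0.97), for Has3 Gnai1 (0.95), Fam35a (0.948) and Kif24 (0.948), and for Has1 Ifngr2 (0.95), Zbp1 (0.933) and Nadk (0.929). Ifngr2 is a subunit of the interferon-gamma receptor and Zbp1 an interferon-induced sensor of nucleic acids. For Hyal1 they were Svop (0.993), Mrps27 (0.99) and Sumf1 (0.988), for Hyal2 Zfp511 (0.99), Il11ra1 (0.989) and Asb6 (0.988), and for Tnfaip6 Pcolce2 (0.881), Ntm (0.841) and Tdp2 (0.822), the loosest of the 9. After the mean of each replicate number was subtracted, r stayed at 0.975 for Cemip with Abr, 0.978 for Has2 with Fam13c and 0.935 for Has1 with Ifngr2. It fell further for others, to 0.865 for Hyal1 with Sumf1 and 0.884 for Has3 with Fam35a. Tnfaip6 with Ntm was the lowest of those named, at 0.771.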

How the data were processed

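Poly(A) RNA from 12 libraries was sequenced as paired reads, per the labels' protocols. The deposited table holds the authors' normalized expression on a log2 scale, without a pseudocount, in which 0 stands for 1 normalized read or fewer. The submitters' processing notes name the mm10 build and DESeq. The aligner, annotation and strand setting were not given in the sources used. After the log2 was undone (0 staying 0), the analysis used log2(normalized count + 1), so changes of low genes are understated. Only 38.2% to 44.5% of low values were whole multiples of the commonest low value (tolerance 0.01 step), which left reads unrecovered and excluded a count model.

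Genes at 10 or more in at least 3 libraries were kept (18139). Limma 3.58.1 in R 4.3.3 fitted 1 mean per group to all 12 libraries, with an intensity trend and Benjamini-Hochberg adjustment over all genes kept, at a threshold of 0.05. Intervals are 95%. The fit without the block was tested on simulated data for TNF in control cells only. Those values were drawn independently for each library, so the model with the block was not tested in this way. Groups and replicate numbers came from the titles. Same-numbered libraries were read as pairs where every correlation, after removing group means, exceeded 0.1. These were 0.103, 0.55 and 0.715 for TNF in control cells, 0.34, 0.148 and 0.501 for TNF in knockout cells, and 0.457, 0.515 and 0.707 for knockout without TNF. For knockout with TNF they were 0.0537, 0.189 and 0.526, so the rule was not met there. The block was nonetheless 1 factor over all 4 groups. Every result with the block thus also joined same-numbered libraries in that comparison. Of 12 libraries, 8 correlated best, among libraries of other groups, with 1 of their own number. The shared position of the libraries numbered 3 enters these correlations, which cannot be told apart from true pairs.

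Exon lengths came from GENCODE annotation of GRCm38, in which 53236 of 53341 gene IDs (99.8%) were found, and promoters from RefSeq GRCm38.p6. The members and all lists were chosen with earlier results of these data known. All 9 members were named, then from each list every gene called in any comparison or otherwise its most abundant tested gene, and for each member the 3 genes with the highest r among those with a mean of at least 50, leaving out clone names and pseudogenes. Promoters were to be printed for members called with TNF. Alternatives were the replicate block, pseudocounts of 0.5 and 8, other filters, scalings and variance models, only the groups compared, and leaving out single libraries or those that stood apart. The same choices tried on top of the block were added after seeing the data. Figures used Python 3.11.15 and matplotlib 3.10.9.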

Additional observations from a re-analysis of the deposited data

Results flagged for a closer look

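Hyal2, the membrane-anchored hyaluronidase, moved in opposite directions with TNF in the 2 genotypes: each of the 3 control pairs of the same replicate number was higher with TNF (log2 differences of 0.45, 0.03 and 0.36) and each of the 3 knockout pairs was lower (-0.38, -0.18 and -0.69). The TNF effect in knockout cells minus that in control cells was -0.70 on the log2 scale. By limma with Benjamini-Hochberg adjustment it did not pass (adjusted p = 0.884 without the block and 0.284 with it). Over its alternatives the value ran from -0.97 to -0.30, and the adjusted p from 0.284 to 1. Hyal2 shares 471 bases with the antisense gene Gm9917, and the number-2 pair in control cells differed by 0.03 only.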

How the results depend on the processing

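The members called without the replicate block stayed at 0 in each comparison under every alternative run, other than those named next. In control cells the replicate block gave 1, and for the average TNF effect the block gave 3 and leaving out the libraries numbered 3 gave 2. The block changed no other count of members called. With the block, the 1 call in control cells became 0 with no intensity trend and without the hepatocyte libraries, the libraries numbered 3, or SoxC_KO replicate 1 and SoxC_KO_TNF replicate 1 (0 to 1 on leaving out single libraries). The 0 calls in knockout cells became 1, Cd44, with a filter of at least 50 or trimmed-mean scaling (0 to 2 on leaving out single libraries). The 3 calls on average became 1 with no filter on low values, 0 with no intensity trend, 1 without the hepatocyte libraries and 0 without SoxC_KO replicate 1 and SoxC_KO_TNF replicate 1 (0 to 3 on leaving out single libraries). They became 2, Cemip and Prg4, with a pseudocount of 0.5 or upper-quartile scaling, and stayed 3 with trimmed-mean scaling, where Cd44 took the place of Has2. Of 1518 single-gene values over 63 results, 32 changed sign, in 13 results, and none of the 32 passed the threshold. Without the hepatocyte libraries, TNF in control cells gave -0.129 for Has3, 0.0277 for Hyal1 and -0.10 for Cd44 (log2), and the average for Hyal2 was 0.165, or 0.0298 with the block. Without the libraries numbered 3, Has3 in control cells gave -0.0472 with and without the block. On leaving out single libraries, TNF in control cells ran from -0.32 to 0.31 for Has3 (-0.10 to 0.16 with the block), -0.45 to 0.14 for Hyal1, -0.14 to 0.41 for Cd44 and -0.99 to 0.006 for Prg4. In knockout cells it ran from -0.81 to 0.19 for Has2 (-0.46 to 0.0431 with the block) and -0.55 to 0.0793 for Hyal1. The average ran from -0.21 to 0.13 for Hyal2 (-0.15 to 0.0012 with the block). Knockout without TNF ran from -0.81 to 0.20 for Has2 and -0.20 to 0.44 for Hyal2, and knockout with TNF from -0.0912 to 0.75 for Has2. With other scalings the median log2 change of all genes lay between -0.0406 and 0.0174 over the comparisons. With the deposited scaling it lay between -0.018 and -0.0006. The causes were not tested. Depth limits Has3 most, at few read pairs per library if the commonest low value is 1 read pair.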
